A study of Mus musculus with 18 samples.

Results

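Genes of 8 secreted factors that act on vessel growth were read one by one, 8 of the 52636 genes in the deposited table. *Vegfa*, *Vegfb*, *Vegfc* and *Pgf* encode ligands of the vascular endothelial growth factor (VEGF) receptors. *Angpt1* and *Angpt2* encode the angiopoietins, which bind the receptor TIE2. *Serpinf1* encodes pigment epithelium-derived factor (PEDF) and *Thbs1* encodes thrombospondin 1, both known to hold back vessel growth. They were taken as a group because the retinal pigment epithelium (RPE) is a source of such signals for the choroidal vessels beside it.

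RNA was sequenced from mouse RPE at postnatal day 14, in 18 libraries that fall into 6 groups of 3, each library from both eyes of 1 mouse. The mice were C57BL/6, and the RPE cells were given a transgene by adeno-associated virus 8 with the RPE-active *Best1* promoter, injected at postnatal day 0 at 1e+09 vector genomes per eye. The virus carried GFP, the nuclear and active form of the sterol regulator SREBP2 (nSREBP2), a control hairpin (ctrl sh, taken here to be the hairpin against LacZ), or 1 of 2 hairpins against *Lrp2*, which encodes the endocytic receptor megalin (Lrp2 sh1 and Lrp2 sh2). Uninjected eyes gave the remaining group. No group was injected with buffer alone, so injection, virus and transgene cannot be told apart in a comparison with uninjected eyes. Cells were freed with papain from eyecups without retina, so cells of the choroid and sclera can be present. Markers of fibroblasts and endothelium had counts in every library, as given below. The levels are therefore those of a mixed preparation and not of RPE cells alone. In bulk RNA, fewer cells of a type and less RNA per cell cannot be told apart.

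The libraries held 8921885 to 13696934 counts. Levels are given as CPM, counts scaled to the library size, with the trimmed mean of M-values (TMM) as the scaling. A count of 3, taken as the limit of detection, corresponded to 0.218 to 0.323 CPM and covers counting error only. The lowest value of any of the 8 factors was 10.5 CPM, for *Angpt2* with Lrp2 sh2.

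*Srebf2*, whose product is SREBP2, stood at 83 to 113 CPM with GFP and 207 to 236 CPM with nSREBP2, with a log2 fold change (log2FC) of 1.10 (SE 0.109, adjusted P 0.000121). The transgene holds part of the mouse coding sequence of this gene, so its reads can count here. Transcripts of the transgene and of the mouse's own gene cannot be told apart in this value. *Lrp2* fell with both hairpins, by 1.68 on the log2 scale with Lrp2 sh1 (adjusted P 0.00328) and by 1.60 with Lrp2 sh2 (adjusted P 0.00109), and the hairpins did not differ in it by the test between them (log2FC 0.08, adjusted P 0.728). It also fell by 2.18 with nSREBP2 (adjusted P 0.000233).

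Genes of the RPE were read as a check of the tissue. The pigment gene *Pmel* was the most abundant of 12 RPE markers, at a mean of 2068 to 2890 CPM per group. *Tyr* (289 to 561 CPM) and *Mitf* (136 to 247 CPM) were present in every library. Which cells of the mixed preparation the *Pmel*, *Tyr* and *Mitf* transcripts came from was not tested. Their levels alone are therefore no measure of RPE cells. *Rpe65*, the isomerase of the visual cycle, differed widely between libraries: it stood at 371, 955 and 1115 CPM in the uninjected libraries, at 1.06 to 3.76 CPM with GFP and nSREBP2, and at 1.77 to 97.8 CPM with the hairpins. Of the 12 markers, 7 were lower with GFP than in uninjected libraries, among them *Rpe65* (log2FC −8.95), *Rgr* (−6.30) and *Ttr* (−4.86). Of all 17837 genes tested there, 1.82% were lower.

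The sex of each mouse was read from 4 Y-linked genes, since the labels do not give it. Their counts were scaled to the library total alone, without TMM. They summed to 244 to 332 CPM in all nSREBP2 libraries, uninjected replicate 3 and Lrp2 sh2 replicates 2 and 3. In the others they summed to 0 to 0.790 CPM. All nSREBP2 mice were therefore male and all GFP mice female, so sex and transgene cannot be told apart in that comparison. Sex was also unbalanced where Lrp2 sh2 was compared with ctrl sh or Lrp2 sh1, whose mice were all female. The same holds for the comparisons with uninjected libraries.

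VEGF-A made by the RPE supports the choriocapillaris, and PEDF from the same cells opposes it. Placental growth factor, encoded by *Pgf*, binds VEGF receptor 1. Angiopoietin 1 steadies vessels through TIE2, which angiopoietin 2 can block, and thrombospondin 1 acts on endothelium through CD36 and CD47. Hypoxia-inducible factors (HIF) switch on *Vegfa* in many tissues.

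With nSREBP2 against GFP, 4 of the 8 factors fell and 1 rose by edgeR at an adjusted P under 0.05. The 4 that fell were *Angpt1*, *Pgf*, *Thbs1* and *Angpt2*, the first 2 of them past a log2FC of −1, and *Serpinf1* rose. Of all 17927 genes tested, 12.6% were called higher, 8.47% lower and 1.96% lower past a log2FC of −1. The median log2FC of the 8 was −0.42, against −0.02 for all genes tested. DESeq2 called 6, with *Vegfa* as the added gene, which edgeR also called without GFP replicate 3 (log2FC −0.37) or without nSREBP2 replicate 1 (−0.41).

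With Lrp2 sh1 against ctrl sh, *Pgf* fell, none of the 8 rose, and none was lower past −1. Among 17801 genes tested, 3.06% were called higher, 2.28% lower and 0.545% lower past −1. At an unadjusted P under 0.05 there were 5 factors, as were 3506 of the genes tested, and DESeq2 called 3, *Pgf*, *Angpt1* and *Vegfa*. The median of the 8 was −0.32 against −0.01. Leaving out 1 library added a call in 3 cases: *Angpt1* without ctrl sh replicate 1 (log2FC −0.45), *Vegfa* without ctrl sh replicate 2 (−0.47) and *Thbs1* without Lrp2 sh1 replicate 3 (−0.43).

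With Lrp2 sh2 against ctrl sh, 5 factors fell (*Vegfa*, *Angpt1*, *Pgf*, *Angpt2* and *Vegfb*), none past −1, and *Thbs1* rose. The shares of 18089 genes tested were 8.59% higher, 9.48% lower and 1.78% lower past −1, and the median of the 8 was −0.58 against 0.01. The tested difference between the hairpins, Lrp2 sh2 against Lrp2 sh1, called *Thbs1* higher and *Vegfa*, *Vegfb* and *Vegfc* lower, where 10.2% of 17975 genes were higher and 12.3% lower. *Angpt1* was added to these without Lrp2 sh1 replicate 3 (log2FC −0.51) or without Lrp2 sh2 replicate 3 (−0.48). Both hairpins were compared with the same 3 ctrl sh libraries, so these comparisons are not independent.

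Against uninjected libraries, none of the 8 was called by edgeR with GFP or with ctrl sh. For GFP, 4 had an unadjusted P under 0.05, as had 3529 of the 17837 genes tested, and DESeq2 called 1 (*Vegfa*). At the adjusted P, 0.662% of all genes were higher and 1.82% lower. For ctrl sh, 2 had an unadjusted P under 0.05, as had 4572 of the 17822 genes tested, and DESeq2 called 1 (*Thbs1*). There 3.13% of all genes were higher and 3.37% lower at the adjusted P. Without uninjected replicate 1, which had the lowest summed RPE markers of its group, *Vegfa* was called lower with GFP (log2FC −0.70). Both comparisons share the uninjected libraries.

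The count of genes called moved by more than 1.5 times with single libraries left out. It went from 3770 to 2481 without GFP replicate 2 for nSREBP2 against GFP. For Lrp2 sh1 it went from 949 to 458 without ctrl sh replicate 3 and to 396, 372 and 364 without Lrp2 sh1 replicates 1, 2 and 3. For Lrp2 sh2 it went from 3268 to 2019 without ctrl sh replicate 3 and to 2175 without Lrp2 sh2 replicate 2, and between the hairpins from 4029 to 2626 without Lrp2 sh1 replicate 2. For GFP against uninjected it went from 442 to 740, 160 and 117 without uninjected replicates 1, 2 and 3, and to 110.0 and 66 without GFP replicates 1 and 2. For ctrl sh against uninjected it went from 1157 to 397 without uninjected replicate 3 and to 690.0, 140.0 and 232 without ctrl sh replicates 1, 2 and 3.

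**Figure D1:**
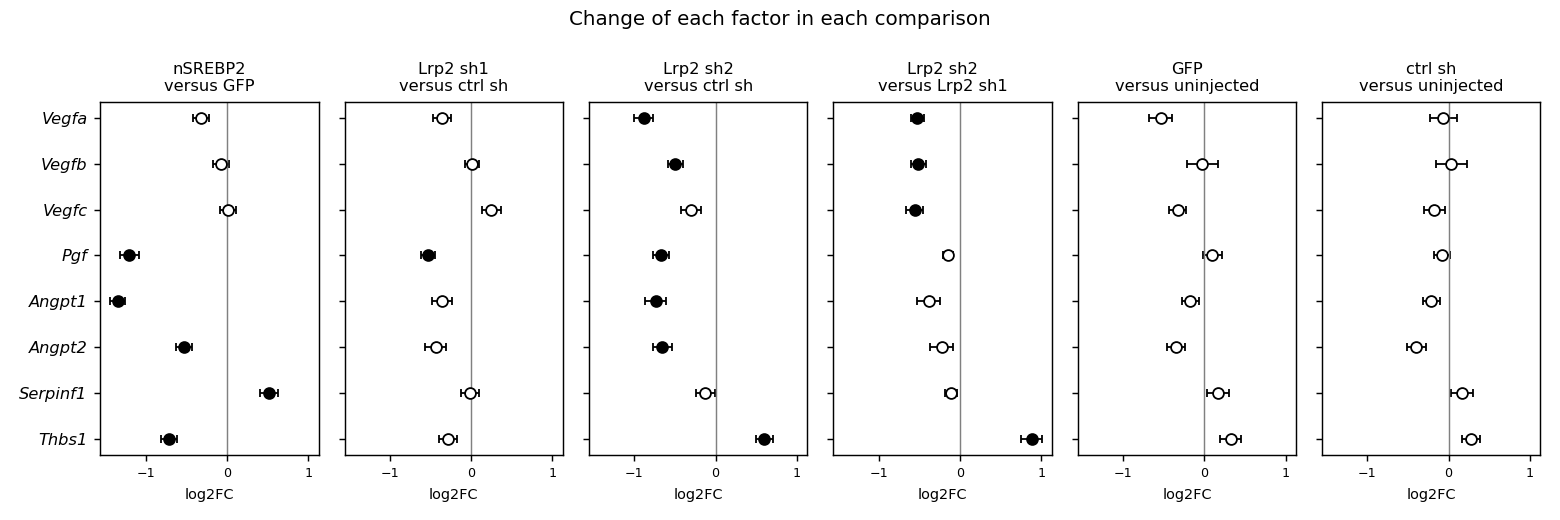
The log2 fold change of each of the 8 factors (points, with bars of 1 SE) in each comparison, filled where the adjusted P was under 0.05. *Pgf* lay below 0 in nSREBP2 against GFP (−1.20), Lrp2 sh1 (−0.53) and Lrp2 sh2 (−0.67), while *Thbs1* lay at −0.71, −0.29 and 0.60.

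*Vegfa* (ENSMUSG00000023951.17; GRCm38 chr17:46016993-46032369, minus strand) stood at 124, 186 and 178 CPM in uninjected libraries. It was at 118, 119 and 105 CPM with GFP and at 103, 93.2 and 77.6 CPM with nSREBP2. With ctrl sh it was at 187, 133 and 154 CPM, with Lrp2 sh1 at 129, 124 and 114 CPM, and with Lrp2 sh2 at 77.1, 85.0 and 92.8 CPM. Every Lrp2 sh2 library lay below every ctrl sh and every Lrp2 sh1 library, and the Lrp2 sh1 and nSREBP2 libraries also lay below all libraries of their own controls. It fell by 0.88 on the log2 scale with Lrp2 sh2 (SE 0.119, adjusted P 0.00117), to a mean of 84.9 ± 7.85 CPM (SD, n = 3) from 158 ± 27.6 CPM. It missed the threshold with Lrp2 sh1 (log2FC −0.36, SE 0.110, adjusted P 0.0935), and 4 of 14 alternatives called it (adjusted P 0.0105 to 0.268 over all 14). It passed without ctrl sh replicate 2 (−0.47) and was nearest to 0 without ctrl sh replicate 1 (−0.23). It also missed it with nSREBP2 (log2FC −0.32, SE 0.102, adjusted P 0.0510). There 7 of 14 alternatives called it lower, with adjusted P of 0.00420 to 0.142 over all of them, among them the fits without GFP replicate 3 (−0.37), without nSREBP2 replicate 1 (−0.41) and with uninjected libraries as the control (−0.86), and it was nearest to 0 without nSREBP2 replicate 3 (−0.21). Against uninjected libraries it had a log2FC of −0.54 with GFP (adjusted P 0.0887), called in 4 of 13 alternatives (adjusted P 0.00196 to 0.241), among them that without uninjected replicate 1 (−0.70).

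*Vegfb* (ENSMUSG00000024962.13; chr19:6982473-6987651, minus strand) was at 29.0, 48.0 and 51.7 CPM in uninjected libraries, 43.7, 46.7 and 37.7 CPM with GFP, and 42.7, 42.2 and 37.2 CPM with nSREBP2. The values were 48.6, 44.6 and 40.8 CPM with ctrl sh, 45.3, 40.6 and 49.2 CPM with Lrp2 sh1, and 33.5, 28.3 and 32.5 CPM with Lrp2 sh2. The Lrp2 sh2 libraries lay below all ctrl sh and Lrp2 sh1 libraries, and the other virus groups overlapped. The gene fell by 0.50 with Lrp2 sh2 against ctrl sh (SE 0.0922, adjusted P 0.00573), a change of −29.1%. With uninjected libraries as the control the log2FC was −0.46 and missed the threshold (adjusted P 0.114), where the alternatives that called it had adjusted P of 0.000823 to 0.0396. Its log2FC was −0.07 with nSREBP2 (adjusted P 0.658) and 0.01 with Lrp2 sh1 (adjusted P 0.964), the former from −0.15 without GFP replicate 3 to −0.00681 without nSREBP2 replicate 3, and the latter took the opposite sign without ctrl sh replicate 3 (−0.0460) or without Lrp2 sh1 replicate 3 (−0.0549).

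*Vegfc* (ENSMUSG00000031520.6; chr8:54077606-54187096, plus strand), better known as a ligand of lymphatic endothelium, was at 28.9, 27.3 and 25.0 CPM in uninjected libraries, 21.2, 20.9 and 23.6 CPM with GFP, and 23.9, 22.3 and 20.5 CPM with nSREBP2. It was at 28.1, 24.3 and 20.7 CPM with ctrl sh, at 31.8, 28.2 and 26.9 CPM with Lrp2 sh1, and at 18.2, 21.5 and 19.2 CPM with Lrp2 sh2. The groups GFP and nSREBP2 overlapped, as did ctrl sh with each hairpin, while all Lrp2 sh2 libraries lay below all Lrp2 sh1 libraries. No comparison with a virus control passed the test: the log2FC was 0.25 with Lrp2 sh1 (adjusted P 0.288) and −0.30 with Lrp2 sh2 (adjusted P 0.133). The first ran from 0.15 without ctrl sh replicate 3 to 0.36 without ctrl sh replicate 1, and was 0.08 with uninjected libraries as the control (adjusted P 0.0913 to 0.614 over 14 alternatives). The second ran from −0.20 without ctrl sh replicate 1 to −0.41 without ctrl sh replicate 3, and was called with the uninjected control alone (−0.48, adjusted P 0.0186 to 0.340 over 14 alternatives). With nSREBP2 it was 0.02 (adjusted P 0.931) and below 0 without GFP replicate 1 (−0.0109), GFP replicate 2 (−0.0228) or nSREBP2 replicate 1 (−0.0278). Between the hairpins it was lower with Lrp2 sh2 (log2FC −0.56, SE 0.102, adjusted P 0.00370).

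*Pgf* (ENSMUSG00000004791.7; chr12:85166635-85177790, minus strand) fell in all 3 comparisons of a transgene with its control. Uninjected libraries held 83.6, 83.5 and 71.7 CPM, GFP libraries 81.0, 76.7 and 101 CPM, and nSREBP2 libraries 40.8, 38.7 and 33.7 CPM. With ctrl sh it was at 66.7, 81.3 and 81.5 CPM, with Lrp2 sh1 at 52.2, 52.0 and 54.8 CPM, and with Lrp2 sh2 at 50.6, 47.2 and 45.1 CPM. All nSREBP2 and all hairpin libraries against *Lrp2* lay below every library of GFP, ctrl sh and uninjected eyes. The fall was 1.20 on the log2 scale with nSREBP2 (SE 0.116, adjusted P 0.000105), 0.53 with Lrp2 sh1 (SE 0.0846, adjusted P 0.00807) and 0.67 with Lrp2 sh2 (SE 0.0940, adjusted P 0.00142). In percent these were −56.4, −30.7 and −37.2. The test between the hairpins did not call it (log2FC −0.15, adjusted P 0.146), though their libraries did not overlap. Over 13 alternatives this log2FC ran from −0.20 to −0.04 (adjusted P 0.0770 to 0.892), and none called it. The nSREBP2 change was not tested against those of the hairpins.

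**Figure D2:**
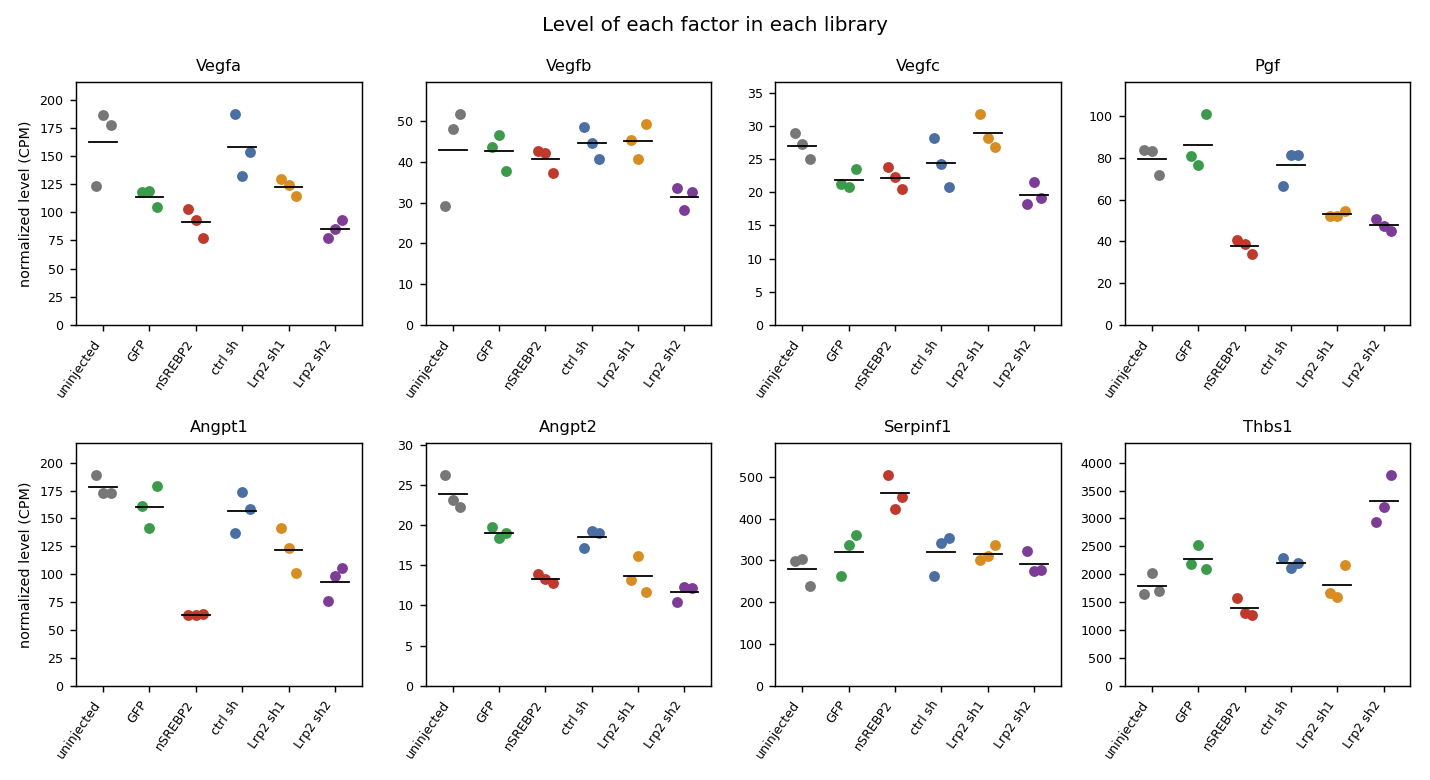
Level in CPM of each of the 8 factors in each of the 18 libraries (points) and the mean of each group of 3 (lines). *Angpt1* in the nSREBP2 libraries (62.9 to 64.1 CPM) lay below every other library, and *Thbs1* with Lrp2 sh2 (2943 to 3785 CPM) above every other library.

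*Angpt1* (ENSMUSG00000022309.8; chr15:42424723-42676977, minus strand) was at 189, 173 and 172 CPM in uninjected libraries, 161, 141 and 179 CPM with GFP, and 62.9, 63.2 and 64.1 CPM with nSREBP2. It was at 137, 174 and 158 CPM with ctrl sh, 141, 124 and 101 CPM with Lrp2 sh1, and 75.6, 98.6 and 105 CPM with Lrp2 sh2. Each nSREBP2 library lay below all GFP libraries and each Lrp2 sh2 library below all ctrl sh libraries, while ctrl sh and Lrp2 sh1 overlapped, as did the hairpins. The gene fell by 1.34 with nSREBP2 (SE 0.0914, adjusted P 1.4e-05), to 63.4 ± 0.610 CPM from 160.4 ± 18.9 CPM (SD, n = 3 each). With Lrp2 sh2 it fell by 0.74 (SE 0.129, adjusted P 0.00426), a change of −40.0%. With Lrp2 sh1 the log2FC was −0.36 (SE 0.122, adjusted P 0.135), called in 4 of 14 alternatives (adjusted P 0.00825 to 0.337), among them those without ctrl sh replicate 1 (−0.45) and with uninjected libraries as the control (−0.56). It was nearest to 0 without Lrp2 sh1 replicate 3 (−0.24). The difference between the hairpins was −0.38 (SE 0.137, adjusted P 0.0722), called in 6 of 13 alternatives (adjusted P 0.00679 to 0.240), and it passed without Lrp2 sh1 replicate 3 (−0.51) or Lrp2 sh2 replicate 3 (−0.48) and was nearest to 0 without Lrp2 sh2 replicate 1 (−0.26). Of its exon bases, 737 overlap *Gm17473* on the other strand, and whether counting used the strand is not stated in the sources.

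*Angpt2* (ENSMUSG00000031465.6; chr8:18690263-18741562, minus strand) was at 26.3, 23.1 and 22.3 CPM in uninjected libraries, 19.8, 18.5 and 18.98 CPM with GFP, and 13.9, 13.2 and 12.8 CPM with nSREBP2. It was at 17.2, 19.3 and 19.1 CPM with ctrl sh, 13.1, 16.1 and 11.7 CPM with Lrp2 sh1, and 10.5, 12.3 and 12.1 CPM with Lrp2 sh2. The uninjected libraries were above all others, and nSREBP2 and both hairpins against *Lrp2* were below all libraries of their controls. It fell by 0.52 with nSREBP2 (SE 0.0993, adjusted P 0.00492) and by 0.66 with Lrp2 sh2 (SE 0.117, adjusted P 0.00457), changes of −30.3% and −36.6%. With uninjected libraries as the control these were −0.87 and −1.05 on the log2 scale. The log2FC with Lrp2 sh1 was −0.44 and missed the threshold (SE 0.127, adjusted P 0.0827). It was called in 4 of 14 alternatives (adjusted P 0.00384 to 0.237 over all 14), which were all 18 libraries without or with a term for sex (−0.44 and −0.43), no filter (−0.43) and uninjected libraries as the control (−0.82). The hairpins were not separated by their own test (log2FC −0.22, adjusted P 0.306), which ran from −0.09 without Lrp2 sh1 replicate 2 to −0.33 without Lrp2 sh1 replicate 3. Against uninjected libraries it was −0.35 with GFP (adjusted P 0.130) and −0.39 with ctrl sh (adjusted P 0.0716), the latter called in the fit of all 18 libraries alone (adjusted P 0.0278 to 0.180 over the 13 alternatives).

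*Serpinf1* (ENSMUSG00000000753.15; chr11:75409769-75422701, minus strand) was at 299, 304 and 238 CPM in uninjected libraries, 262, 337 and 361 CPM with GFP, and 505, 424 and 453 CPM with nSREBP2. With ctrl sh it was at 262, 342 and 355 CPM, with Lrp2 sh1 at 302, 309 and 336 CPM, and with Lrp2 sh2 at 323, 274 and 276 CPM. The nSREBP2 libraries were above all others, and the remaining 5 groups overlapped. With nSREBP2 it rose 1.43-fold (log2FC 0.52, SE 0.114, adjusted P 0.0101), with a log2FC of 0.80 in the fit with a term for sex. Its log2FC was −0.12 with Lrp2 sh2 (adjusted P 0.525) and −0.02 with Lrp2 sh1 (adjusted P 0.954). The former ran from −0.26 without ctrl sh replicate 1 to −0.04 without ctrl sh replicate 3, with −0.21 without Lrp2 sh2 replicate 1 and −0.07 without ctrl sh replicate 2. The latter was −0.15 without ctrl sh replicate 1 and above 0 without ctrl sh replicate 2 (0.0384), ctrl sh replicate 3 (0.0683) or Lrp2 sh1 replicate 1 (0.0155).

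*Thbs1* (ENSMUSG00000040152.8; chr2:118111876-118127133, plus strand) was at 1648, 2012 and 1691 CPM in uninjected libraries, 2177, 2526 and 2089 CPM with GFP, and 1574, 1308 and 1271 CPM with nSREBP2. It was at 2282, 2106 and 2209 CPM with ctrl sh, 1656, 1594 and 2157 CPM with Lrp2 sh1, and 2943, 3197 and 3785 CPM with Lrp2 sh2. The nSREBP2 libraries were below all others and the Lrp2 sh2 libraries above all others, while ctrl sh and Lrp2 sh1 overlapped in 1 library. The gene fell by 0.71 with nSREBP2 (SE 0.102, adjusted P 0.00102), a change of −39.0% (log2FC −0.39 with uninjected libraries as the control), and rose 1.52-fold with Lrp2 sh2 (log2FC 0.60, SE 0.104, adjusted P 0.00414). With Lrp2 sh1 the log2FC was −0.29 (SE 0.111, adjusted P 0.187), and it passed without Lrp2 sh1 replicate 3 (−0.43) and without a filter (−0.28), and was 0.000163 with uninjected libraries as the control (adjusted P 0.0245 to 0.999 over 14 alternatives). Of its exon bases, 208 overlap *Gm29233* on the other strand.

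The hairpins differed in 4 of the 8 factors by the test between them, with *Lrp2* at 29.7 to 42.8 CPM with Lrp2 sh1 and at 34.5 to 43.9 CPM with Lrp2 sh2. Of all 17975 genes tested, 10.2% were higher and 12.3% lower. Markers of some cell types also differed between the hairpins. With Lrp2 sh2, 7 of 12 RPE markers (median log2FC −1.21) and 11 of 12 endothelial markers (−0.46) were lower. Higher were 8 of 9 rod markers (3.06), 6 of 10 macrophage markers (0.63) and 1 of 8 fibroblast markers (0.10). Of 7 blood markers 3 were lower (−0.44), and of 8 pericyte and smooth muscle markers 3 were higher and 3 lower. Of 7 Müller glia and astrocyte markers, 1 was higher and 2 lower. Rod markers summed to 256, 61.2 and 71.9 CPM in Lrp2 sh2 replicates 1 to 3, against 29.4, 33.8 and 53.6 CPM with Lrp2 sh1. The fibroblast count was near the share of all genes called higher, and the Müller glia and astrocyte markers went both ways. How far the markers of cell types carry the difference in the factors was not tested. *Thbs1* was higher by 84.3% with Lrp2 sh2 than with Lrp2 sh1 (log2FC 0.88, SE 0.126, adjusted P 0.000880). *Vegfa* was lower (log2FC −0.52, SE 0.0804, adjusted P 0.00130), as were *Vegfb* (log2FC −0.51, SE 0.0930, adjusted P 0.00344) and *Vegfc*, with changes of −30.5%, −29.9% and −31.9%. In each of the 4 genes all 3 libraries of one hairpin lay on the same side of all 3 of the other. This also held for *Pgf*, which the test did not call. The share of all genes with such separation is not given, so it is a description and adds no support to the calls.

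Because 3 VEGF ligands were lower with Lrp2 sh2 than with Lrp2 sh1, the 250 bases before their first annotated start were read for short motifs on both strands. The windows are from RefSeq on build GRCm38.p6, which gave a window for 5 of the 8 factors. The motifs were the E-box CACGTG, the sterol element TCACNCCAC, the hypoxia elements ACGTG and GCGTG, and the sterol-like GTGGGG, and ACGTG lies within CACGTG. Of 32851 promoter windows of the same length, 6.02% held CACGTG, 1.05% TCACNCCAC, 16.6% ACGTG, 28.2% GCGTG and 25.5% GTGGGG. The window of *Vegfa* (chr17:46032378-46032627, minus strand) held none of them, while the window of a second start of that gene (chr17:46025164-46025413) held ACGTG at 1 place and GCGTG at 1. That of *Vegfb* (chr19:6987652-6987901, minus strand) held GCGTG at 2 places, 1 of them read as CACGC on the printed strand, and GTGGGG at 1. That of *Vegfc* (chr8:54077282-54077531, plus strand) held GTGGGG at 1 place, read as CCCCAC. The other 2 factors with a window, *Pgf* and *Serpinf1*, were not separated by the test between the hairpins, and they held hypoxia elements as well. *Pgf* had GCGTG at 1 place before one start (chr12:85177314-85177563, minus strand) and no motif before a second (chr12:85175983-85176232), and *Serpinf1* had ACGTG at 1 place (chr11:75422624-75422873, minus strand). A match is a description of the sequence and says nothing of binding. Capitals mark the motifs below, each sequence in the direction of its gene.

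Vegfa: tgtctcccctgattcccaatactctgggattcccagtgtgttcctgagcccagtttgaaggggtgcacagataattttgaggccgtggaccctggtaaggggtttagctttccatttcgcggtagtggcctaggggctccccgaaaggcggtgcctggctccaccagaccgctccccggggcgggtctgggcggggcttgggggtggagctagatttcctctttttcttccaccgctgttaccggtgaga

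Vegfb: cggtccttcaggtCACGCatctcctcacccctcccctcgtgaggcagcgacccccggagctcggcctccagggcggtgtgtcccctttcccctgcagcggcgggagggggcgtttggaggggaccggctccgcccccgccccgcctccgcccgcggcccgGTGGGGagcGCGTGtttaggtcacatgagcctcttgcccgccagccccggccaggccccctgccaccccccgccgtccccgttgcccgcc

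Vegfc: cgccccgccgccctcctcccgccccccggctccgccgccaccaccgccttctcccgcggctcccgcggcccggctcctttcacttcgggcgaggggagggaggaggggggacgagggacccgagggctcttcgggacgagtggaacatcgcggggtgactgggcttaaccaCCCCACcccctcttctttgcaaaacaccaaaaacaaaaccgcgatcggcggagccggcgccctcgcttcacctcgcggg

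Levels of different genes were compared per kilobase of exon. *Thbs1* was the most abundant, at a median of 345 CPM per kb over the 18 libraries (209 to 623), followed by *Serpinf1* at 134 (101 to 214). The lowest *Thbs1* value lay under the highest of *Serpinf1*, and their means with nSREBP2 were 228 and 195. *Vegfa* (27.6), *Angpt1* (26.7), *Vegfb* (26.4) and *Pgf* (20.9) had ranges that overlapped, so their order does not hold beyond the spread. *Vegfc* at 9.69 (7.43 to 13.002) reached the lower end of *Pgf*, and *Angpt2* at 4.51 (2.84 to 7.13) lay below it in every library. With nSREBP2 the means of 3 of these genes were 25.3 for *Vegfb*, 21.3 for *Vegfa* and 12.2 for *Angpt1*, whereas in uninjected libraries they were 26.7, 38.0 and 34.2.

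Genes that act with these factors were read in 6 lists, and the median log2FC of all genes tested beside them was −0.02 in nSREBP2 against GFP and −0.01 and 0.01 for the hairpins Lrp2 sh1 and Lrp2 sh2. The counts of each list stand against shares of all genes called higher and lower of 12.6% and 8.47% in nSREBP2 against GFP, 3.06% and 2.28% for Lrp2 sh1, and 8.59% and 9.48% for Lrp2 sh2. Of 7 VEGF and angiopoietin receptors, 6 fell and none rose with nSREBP2 (median log2FC −0.61). *Flt1*, which encodes VEGF receptor 1, was at 366, 383 and 484 CPM with GFP and at 233, 231 and 222 CPM with nSREBP2 (log2FC −0.85, SE 0.103, adjusted P 0.000401), and with uninjected libraries as the control its log2FC was −1.28. *Nrp1* fell by 0.70 and *Tie1* by 0.67. With Lrp2 sh2, 6 also fell and none rose (median −0.55), and *Kdr*, the main signalling receptor of VEGF-A, went from 487, 420 and 361 CPM to 243, 257 and 256 CPM (log2FC −0.74, SE 0.100, adjusted P 0.00123), *Flt4* fell by 0.60 and *Tie1* by 0.56. With Lrp2 sh1 the median was −0.17 and *Flt4* alone passed (log2FC −0.23, SE 0.0569, adjusted P 0.0496). It missed the threshold in 10 of 14 alternatives (adjusted P 0.0119 to 0.159), DESeq2 among them, and without ctrl sh replicate 2 (−0.19) or 3 (−0.23) or Lrp2 sh1 replicate 1 (−0.23), 2 (−0.24) or 3 (−0.22). DESeq2 called none of the 7 there, and 3 had an unadjusted P under 0.05. Between the hairpins 5 were lower with Lrp2 sh2. With GFP against uninjected none was called by edgeR (3 at an unadjusted P under 0.05, 2 by DESeq2), and with ctrl sh against uninjected 1 was lower. Of these receptors 3 (*Kdr*, *Tie1* and *Tek*) are also among the endothelial markers.

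Of 6 receptors of thrombospondin 1 and PEDF, 3 rose and 1 fell with nSREBP2 (median log2FC 0.21). *Cd36*, a scavenger receptor for thrombospondin 1, rose by 0.77 (SE 0.149, adjusted P 0.00553) and *Rpsa*, which encodes a laminin receptor, by 0.45, while *Itgb3* fell by 0.39. With Lrp2 sh2, 1 rose and 2 fell (median 0.06). *Pnpla2*, which encodes the lipase that binds PEDF, fell by 0.57 (SE 0.112, adjusted P 0.00740), *Itgb3* fell by 0.34 and *Rpsa* rose by 0.33. With Lrp2 sh1 edgeR called none (median 0.03), 1 had an unadjusted P under 0.05 and DESeq2 called 1. With Lrp2 sh2 the *Itgb3* call was lost without ctrl sh replicate 2 (−0.25) or 3 (−0.37) or Lrp2 sh2 replicate 1 (−0.28) or 3 (−0.34), and that of *Rpsa* without ctrl sh replicate 1 (0.27) or 3 (0.31) or Lrp2 sh2 replicate 2 (0.33) or 3 (0.26). In the fit with a term for sex, neither *Rpsa* nor *Itgb3* passed with nSREBP2 (log2FC 0.35 and −0.34) or with Lrp2 sh2 (0.25 and −0.31). With uninjected libraries as the control, *Itgb3* passed with neither (−0.31 and −0.18).

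Of 12 other angiogenic ligands, 3 rose and 1 fell with nSREBP2 (median log2FC −0.00187). *Hgf*, hepatocyte growth factor, fell by 0.75 (SE 0.144, adjusted P 0.00508), *Apln* rose by 0.57 and *Adm* by 0.49. The *Apln* call was lost without GFP replicate 1 (0.50) or 2 (0.47) or nSREBP2 replicate 2 (0.58) or 3 (0.52), and that of *Adm* without GFP replicate 2 (0.41) or nSREBP2 replicate 1 (0.44) or 2 (0.52), by DESeq2 (0.50), over all 18 libraries at once (0.48), with a term for sex (0.15) and with uninjected libraries as the control (0.35). *Apln* was lost with a term for sex (0.71) and called at 1.01 with the uninjected control. With Lrp2 sh2, 3 fell and none rose (median −0.22): *Apln* by 0.66, *Fgf1* by 0.50 (SE 0.0901, adjusted P 0.00469) and *Pdgfb* by 0.36. *Apln* missed the threshold there without ctrl sh replicate 1 (−0.64), 2 (−0.67) or 3 (−0.69), with a term for sex (−0.58) and with uninjected libraries as the control (−0.0776), and it was itself higher with ctrl sh than in uninjected libraries (log2FC 0.58, adjusted P 0.0220). *Pdgfb* missed it with a term for sex (−0.26) and was called at −0.67 with the uninjected control. For Lrp2 sh1 edgeR and DESeq2 called none (median −0.10), and 4 had an unadjusted P under 0.05.

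Of 11 other antiangiogenic factors, 6 rose and 2 fell with nSREBP2 (median log2FC 0.48). *Sema3a*, a secreted semaphorin, rose 2.61-fold, from 15.9, 16.95 and 20.5 CPM to 49.3, 41.3 and 49.4 CPM (log2FC 1.38, SE 0.115, adjusted P 4.3e-05). *Thbs2*, a relative of *Thbs1*, rose by 0.81 (SE 0.114, adjusted P 0.000904), and *Col4a3*, the source of tumstatin, fell (a change of −49.9%, adjusted P 0.00101). With Lrp2 sh2, 2 rose and 2 fell (median −0.03): *Col4a3* fell by 1.07, *Timp3* by 0.56 (SE 0.0734, adjusted P 0.00100), and *Col18a1*, the source of endostatin, rose by 0.61. With Lrp2 sh1, *Col4a3* fell by 0.85 and *Thbs4* rose by 0.53 (median 0.05). *Col4a3* was itself higher with ctrl sh (487, 288 and 352 CPM) than in uninjected libraries (131, 187 and 174 CPM; log2FC 1.17, adjusted P 0.0154), and with uninjected libraries as the control its log2FC was 0.33 with Lrp2 sh1 and 0.11 with Lrp2 sh2. *Col18a1* missed the threshold with that control (0.32) and in the fit with a term for sex (0.69). In the Lrp2 sh1 comparison *Col4a3* missed it without Lrp2 sh1 replicate 1 (−0.79) or 3 (−0.84), and *Thbs4* did without ctrl sh replicate 2 (0.57) or Lrp2 sh1 replicate 2 (0.46) or 3 (0.53) and with uninjected libraries as the control (0.25). *Col4a3* also missed it there with replicate number as a block (−0.82).

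In the HIF system of 9 genes, *Egln3* rose and *Hif3a* and *Epas1* fell with nSREBP2 (median log2FC −0.08). *Egln3*, which encodes an oxygen-sensing hydroxylase, rose 3.30-fold, from 9.68, 11.98 and 8.85 CPM to 33.1, 32.2 and 35.5 CPM (log2FC 1.72, SE 0.120, adjusted P 1.6e-05). *Hif3a* fell by 1.75 and *Epas1*, which encodes HIF-2α, by 0.75. With Lrp2 sh2, 2 rose and 3 fell (median −0.08), among them *Hif3a* by 1.90 and *Epas1*, from 1296, 1261 and 1305 CPM to 664, 757 and 739 CPM (log2FC −0.83, SE 0.0774, adjusted P 0.000201), while *Egln3* rose by 1.01. With Lrp2 sh1, *Hif3a* fell by 1.51 (SE 0.268, adjusted P 0.0126) and *Epas1* by 0.27 (median −0.04). The *Hif3a* call with Lrp2 sh1 was lost without Lrp2 sh1 replicate 1 (−1.55), 2 (−1.55) or 3 (−1.44). That of *Epas1* was lost without ctrl sh replicate 2 (−0.29) or 3 (−0.26) or Lrp2 sh1 replicate 1 (−0.28), 2 (−0.28) or 3 (−0.26), over all 18 libraries with or without a term for sex (−0.27 each) and with replicate number as a block (−0.27). *Egln3* with Lrp2 sh2 missed the threshold without ctrl sh replicate 3 (0.93) or with sex as a term (0.65), and was called at 0.67 without Lrp2 sh2 replicate 3.

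Of 15 HIF target genes, 2 rose and 2 fell with nSREBP2 (median log2FC 0.02), where 12.6% of all genes were higher and 8.47% lower. *Vldlr*, a lipoprotein receptor, fell by 1.61 (SE 0.131, adjusted P 3.9e-05), the glucose transporter gene *Slc2a1* by 1.09, and *Pfkfb3* rose by 0.58. With Lrp2 sh2, 3 rose and 1 fell (median 0.02): *Pfkfb3* rose by 0.80 (SE 0.0704, adjusted P 0.000155) and *Ero1l* by 0.37, and *Vldlr* fell by 0.43. With Lrp2 sh1, 1 rose and 2 fell (median 0.14): *Ero1l* rose by 0.62 (SE 0.0840, adjusted P 0.00346), *Slc2a1* fell by 0.50 and *Pgk1* by 0.42. With Lrp2 sh2, *Vldlr* missed the threshold without Lrp2 sh2 replicate 1 (−0.42) or 2 (−0.43), over all 18 libraries without (−0.44) and with a term for sex (−0.58), and with uninjected libraries as the control (−0.55). *Ero1l* missed it without ctrl sh replicate 1 (0.31) or 3 (0.35) or Lrp2 sh2 replicate 2 (0.29), with a term for sex (0.29) and with the uninjected control (0.11). With that control *Pfkfb3* was called at 0.25, and it was itself lower with ctrl sh than in uninjected libraries (log2FC −0.54, adjusted P 0.00902). With Lrp2 sh1, *Pgk1* missed it without Lrp2 sh1 replicate 1 (−0.38) or 2 (−0.40), over all 18 libraries with or without a term for sex (−0.42 each) and with the uninjected control (−0.28), with which *Ero1l* was called at 0.38. *Slc2a1* missed it without ctrl sh replicate 3 (−0.56) or Lrp2 sh1 replicate 1 (−0.49), 2 (−0.54) or 3 (−0.46), over all 18 libraries with or without a term for sex (−0.50 each) and with replicate number as a block (−0.48). It was called at −0.33 without ctrl sh replicate 1 and at −1.03 with the uninjected control.

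Markers of the cell types that the eyecup can hold were summed per library, and their part in the result was not tested. The counts called in each marker list stand beside shares of all genes tested. These were 12.6% higher and 8.47% lower with nSREBP2 against GFP, 3.06% and 2.28% with Lrp2 sh1, and 8.59% and 9.48% with Lrp2 sh2. Between the hairpins they were 10.2% and 12.3%. Of 12 endothelial markers, 9 were lower with nSREBP2 (median log2FC −0.50), 1 with Lrp2 sh1 (−0.11), 10 with Lrp2 sh2 (−0.57) and 11 between the hairpins, and none was higher. Their sum was 3129, 3100.0 and 3888 CPM with GFP and 2792, 2637 and 2506 CPM with nSREBP2. It was 3313 to 3444 CPM with ctrl sh, 2986 to 3241 CPM with Lrp2 sh1 and 2210.2 to 2413 CPM with Lrp2 sh2. *Vwf* was the most abundant of them. Of 8 pericyte and smooth muscle markers, 3 fell in the nSREBP2 group, 2 in Lrp2 sh1 and 4 in Lrp2 sh2, where 1 rose. That sum was 2381 to 3154 CPM with GFP, 1974 to 2294 with nSREBP2, 2655 to 2863 with ctrl sh, 2117 to 2399 with Lrp2 sh1 and 2117 to 2586 with Lrp2 sh2, most of all *Rgs5*.

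Fibroblast and macrophage markers were higher with nSREBP2. Of 8 fibroblast markers, 7 were higher with nSREBP2, and their sum was 72190 to 87857 CPM against 35042 to 44687 CPM with GFP, with *Col1a1* the most abundant. With Lrp2 sh2, 2 were higher, and with Lrp2 sh1 edgeR called none (1 at an unadjusted P under 0.05, 1 by DESeq2). All 10 macrophage markers were higher with nSREBP2, summing to 907 to 1086 CPM against 353 to 405 CPM, with *Lyz2* the most abundant there and *Csf1r* in the other groups. With Lrp2 sh1, 1 was lower, and with Lrp2 sh2, 2 were higher.

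Of the 12 RPE markers, 2 were higher and 3 lower with nSREBP2, 1 was lower with Lrp2 sh1, and 6 were lower with Lrp2 sh2. Their sum was 5178 to 11430 CPM in uninjected libraries, 3574 to 3725 with GFP, 3173 to 4216 with nSREBP2, 4865 to 7350.1 with ctrl sh, 4274 to 4890 with Lrp2 sh1 and 3018 to 3287 with Lrp2 sh2. *Pmel* made up 30.6% of it in uninjected libraries, 73.9% with GFP and 77.2% with nSREBP2. Its share was 45.7% with ctrl sh, 52.4% with Lrp2 sh1 and 65.4% with Lrp2 sh2. The sum with GFP and nSREBP2 is thus mostly that of 1 pigment gene, and which cells its transcripts came from was not tested. With ctrl sh against uninjected edgeR called none of the 12, 6 had an unadjusted P under 0.05 and DESeq2 called 1. Of 9 rod markers, 1 was higher with nSREBP2 and 7 with Lrp2 sh2. With nSREBP2 all 9 had a log2FC above 0 (median 1.34), 6 had an unadjusted P under 0.05 and DESeq2 called none. Their sum was 245, 194 and 170.2 CPM with nSREBP2 and 28.8, 68.8 and 179 CPM with GFP. It was 256, 61.2 and 71.9 CPM with Lrp2 sh2 against 38.8, 47.0 and 38.4 CPM with ctrl sh, and of these 9 *Sag* was the most abundant with nSREBP2 and Lrp2 sh2. With Lrp2 sh1 edgeR called none of 7 tested, 0 had an unadjusted P under 0.05, and DESeq2 gave no count because its filter left some of them without an adjusted P. *Cnga1* was at 0 in uninjected replicate 3 and Lrp2 sh1 replicate 2, which 3 counts put at no more than 0.323 and 0.248 CPM. Of 7 blood markers, edgeR called none with nSREBP2 (1 at an unadjusted P under 0.05, none by DESeq2), 1 was lower with Lrp2 sh1 and 5 with Lrp2 sh2, where they summed to 356 to 448 CPM against 644 to 814 CPM, most of all *Hbb-bs*. There were 7 Müller glia and astrocyte markers, which share *Rlbp1* with the RPE list. With nSREBP2, 1 was higher and 1 lower, where 12.6% and 8.47% of all genes were. With Lrp2 sh2, 1 was also higher and 1 lower (8.59% and 9.48% of all genes), and with Lrp2 sh1, 1 was lower (2.28%). That sum was 1604 to 1762 CPM with GFP, 1469 to 1867 with nSREBP2, 2118 to 2355 with ctrl sh and 1892 to 2154 with Lrp2 sh2, with *Vim* the most abundant in nSREBP2 and Lrp2 sh2 and *Glul* in the other groups.

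**Figure D3:**
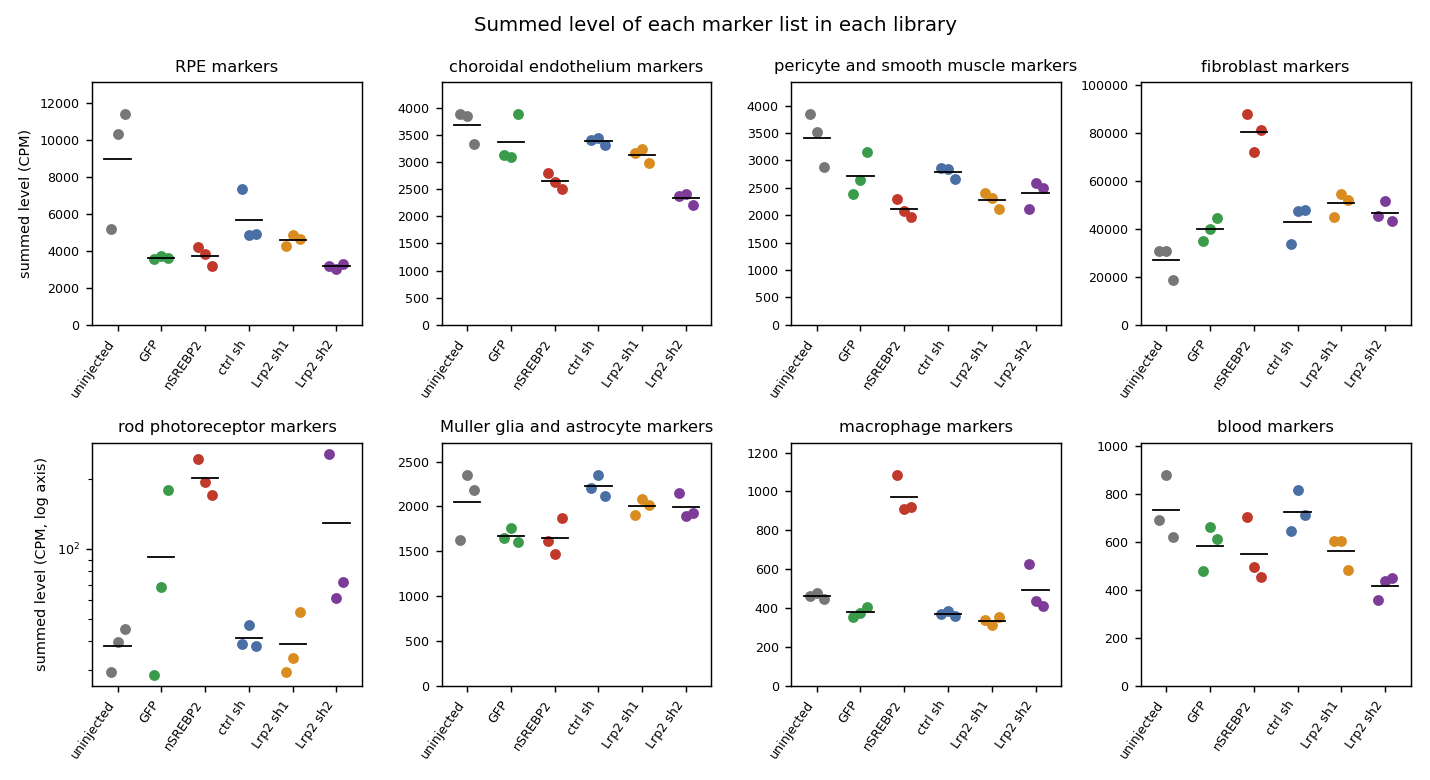
Summed CPM of each list of cell type markers in the 18 libraries (points) with the mean of each group (lines), on a log axis for the rod markers and a linear axis from 0 for the others. Macrophage markers summed to 907 to 1086 CPM with nSREBP2 against 353 to 405 CPM with GFP, and endothelial markers to 2210.2 to 2413 CPM with Lrp2 sh2 against 3313 to 3444 CPM with ctrl sh.

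For each factor the genes with the nearest pattern were found over 12350 genes and all 18 libraries, by Pearson r of log2(CPM + 1), with Spearman ρ beside it. The libraries share groups, so these are descriptions without a test. *Angpt1* was nearest to *Pappa2* (r 0.982, ρ 0.953), *Rcan2* (r 0.977, ρ 0.977) and *Hrk* (r 0.971, ρ 0.979). *Vegfa* was nearest to *Arl6ip1* (r 0.963, ρ 0.957), *Slc5a6* (r 0.959, ρ 0.932) and *Pltp* (r 0.950, ρ 0.948). *Pgf* had *Smoc1* (r 0.961), *Igfbp4* (r 0.959) and *Ano1* (r 0.948), with ρ of 0.932 to 0.957, and *Angpt2* had *Plcb4* (r 0.951), *Eya4* (r 0.934) and *Gnas* (r 0.929), with ρ of 0.880 to 0.946. *Thbs1* had *Fras1* (r 0.950), *Npr3* (r 0.934) and *Tyro3* (r 0.929), with ρ of 0.928 to 0.940. *Serpinf1* had *Fmod* (r 0.941, ρ 0.917), which is among the fibroblast markers, *Wipf1* (r 0.931, ρ 0.948) and *Pdgfrl* (r 0.923, ρ 0.804). The nearest genes of *Vegfb* were *Gnptg* (r 0.897), *Renbp* (r 0.882) and *Optn* (r 0.878), with ρ of 0.858 to 0.938, and those of *Vegfc* were *Stau1* (r 0.851), *Pcdh18* (r 0.851) and *Rps6ka2* (r 0.840), with ρ of 0.804 to 0.876.

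Among the factors themselves, *Pgf* and *Angpt1* had the highest r (0.915), which was 0.229 once each group's mean was removed. The values were 0.808 and 0.164 for *Pgf* and *Angpt2*, and 0.807 and 0.615 for *Angpt1* and *Angpt2*. *Vegfa* and *Vegfb* kept theirs, at 0.644 and 0.691. *Serpinf1* ran against *Angpt1* over the groups (r −0.618) but not within them (−0.0195), and with *Pgf* it went from −0.426 to 0.736.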

How the data were processed

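RNA was depleted of ribosomal RNA and sequenced as directional libraries from 18 samples. The authors mapped reads to GRCm38 with STAR 2.7.3a and deposited unnormalised counts per gene, 1 column per library. Neither the annotation nor whether reads were counted by strand is given. Positions come from GENCODE M21 by gene identifier. From these counts, 6 comparisons of 2 groups (3 libraries each) were fitted with the quasi-likelihood test (two-sided) of edgeR 4.0.16 under R 4.3.3 after its default expression filter and TMM scaling, with Benjamini-Hochberg adjustment over all genes tested and a call at an adjusted P under 0.05. The error beside a log2FC is its standard error (SE). Library totals were 8921885 to 13696934 counts, so that 3 counts correspond to 0.218 to 0.323 CPM.

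Named genes were the 8 factors, *Srebf2* and *Lrp2*, for each pathway list at most the 3 called genes with the largest absolute log2FC in each of nSREBP2 against GFP and the hairpins against ctrl sh, and for each factor the 3 genes of highest Pearson r among genes with a mean of at least 5 CPM. Markers named beside their lists and the genes overlapping on the other strand lie outside that rule. So do *Col4a3*, *Apln* and *Pfkfb3* with ctrl sh against uninjected libraries. All of these were chosen after their values were seen. The 8 factors and the lists were chosen with earlier results of these data known.

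As alternatives, the data were also fitted by DESeq2 1.42.0, by edgeR scaled with DESeq2 size factors, unfiltered, on genes reaching 10 counts in each library, over all 18 libraries at once, and so again with a term for sex. Further ones were replicate number as a block, an absolute log2FC above 1, each library left out in turn, and uninjected libraries as the control. Pearson r with size factors in place of TMM was added after seeing the data. No library was left out of the main results. The rod marker list is given over 9 of the 10 genes first set down for it, and the other was dropped for a reason unrelated to its values. Promoter windows came from RefSeq, build GRCm38.p6.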

Additional observations from a re-analysis of the deposited data

Results flagged for a closer look

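The hairpins against *Lrp2* differed from each other in 4 of the 8 factors by a test of the difference itself, Lrp2 sh2 against Lrp2 sh1 with 3 libraries each. The log2FC was −0.52 for *Vegfa*, −0.51 for *Vegfb*, −0.56 for *Vegfc* and 0.88 for *Thbs1*, and each passed in all 13 alternatives other than the limit of an absolute log2FC above 1, which none of the 4 passed. Of all 17975 genes tested, 10.2% were higher and 12.3% lower with Lrp2 sh2 than with Lrp2 sh1. *Lrp2* itself differed by a log2FC of 0.08 (adjusted P 0.728). Sex was unbalanced between the hairpins, with Lrp2 sh2 replicates 2 and 3 male and all Lrp2 sh1 mice female. Markers of some cell types differed too: 7 of 12 RPE markers (median log2FC −1.21) and 11 of 12 endothelial markers (−0.46) were lower with Lrp2 sh2. Higher were 8 of 9 rod markers (3.06), 6 of 10 macrophage markers (0.63) and 1 of 8 fibroblast markers (0.10). Of 7 blood markers 3 were lower (−0.44), and of 8 pericyte and smooth muscle markers 3 were higher and 3 lower. Of 7 Müller glia and astrocyte markers, 1 was higher and 2 lower. Rod markers summed to 256, 61.2 and 71.9 CPM in Lrp2 sh2 replicates 1 to 3, against 29.4, 33.8 and 53.6 CPM with Lrp2 sh1. The fibroblast count was near the share of all genes called higher, and the Müller glia and astrocyte markers went both ways. The part of the cell type markers in the difference was not tested, nor was any other cause.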

How the results depend on the processing

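The limit of an absolute log2FC above 1 leaves each log2FC as it is and is given only as counts. Under the other alternatives, of 648 values of the 48 log2FC of the factors, 586 kept their direction and side of the threshold, 34 newly passed it, 1 no longer passed it (*Vegfb* with Lrp2 sh2 and uninjected libraries as the control) and 27 changed sign, none of them a value that had passed. Each factor called with nSREBP2 or between the hairpins was called in all of these alternatives, as was *Pgf* with Lrp2 sh1. Where a value moved, the cause was not tested beyond the alternative's own construction.

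With the limit of an absolute log2FC above 1, the genes called were 1195 for nSREBP2 against GFP, 177 for Lrp2 sh1, 861 for Lrp2 sh2, 251 for GFP against uninjected, 426 for ctrl sh against uninjected and 922 between the hairpins, and the factors called were 2 for nSREBP2 and 0 for Lrp2 sh1, Lrp2 sh2 and the hairpins. DESeq2 called 841 genes for GFP against uninjected, 3 factors for Lrp2 sh1 and 1 in each comparison with uninjected libraries. Without a filter the genes were 1441 for Lrp2 sh1, 1093 for GFP and 1736 for ctrl sh against uninjected, and the factors 5 for Lrp2 sh1 and 1 for GFP against uninjected. The fit of all 18 libraries called 1722 genes for GFP and 2870.0 for ctrl sh against uninjected, 2 factors for Lrp2 sh1 and 1 in each comparison with uninjected libraries.

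With sex as a term, estimated from the uninjected and Lrp2 sh2 groups, which alone held both sexes, the genes were 2178 for nSREBP2, 1225 for GFP and 2456 for ctrl sh against uninjected, and the factors 2 for Lrp2 sh1. The log2FC changed sign for *Vegfa* with ctrl sh against uninjected (0.0128), *Vegfb* with GFP against uninjected (0.0402), and *Serpinf1* with Lrp2 sh2 (0.0507) and between the hairpins (0.0651). With uninjected libraries as the control, Lrp2 sh1 gave 4354 genes and 4 factors, and the log2FC changed sign for *Vegfc* with nSREBP2 (−0.31), *Serpinf1* with Lrp2 sh1 (0.16) and Lrp2 sh2 (0.0396), *Thbs1* with Lrp2 sh1 (0.000163) and *Col4a3* with Lrp2 sh1 (0.33) and Lrp2 sh2 (0.11).

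With replicate number as a block, the genes were 3229 for nSREBP2, 492 for Lrp2 sh1, 2612 for Lrp2 sh2, 380.0 for GFP and 244 for ctrl sh against uninjected and 4000.0 between the hairpins, the factors 6, 1, 6, 0, 0 and 4, and *Vegfb* with GFP against uninjected changed sign (0.00337). Each gene's group mean of log2(CPM + 1) was taken out, and the deviations of libraries of the same number were correlated over genes. Between groups this r was −0.264 to 0.332, above 0.1 for all 3 numbers in no comparison, so numbers were not read as pairs.

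Leaving out each library in turn gave 2481 to 4097 genes for nSREBP2, 364 to 1298 for Lrp2 sh1, 2019 to 2727 for Lrp2 sh2, 66 to 740.0 for GFP and 140.0 to 998 for ctrl sh against uninjected, and 2626 to 3705 between the hairpins. The factors called were 5 to 6 for nSREBP2, 1 to 2 for Lrp2 sh1, 0 to 1 for GFP against uninjected and 4 to 5 between the hairpins. Signs changed within the log2FC ranges of *Vegfc* with nSREBP2 (−0.0278 to 0.0805), *Vegfb* with Lrp2 sh1 (−0.0549 to 0.0821) and *Serpinf1* with Lrp2 sh1 (−0.15 to 0.0683). Against uninjected libraries they did so with GFP for *Vegfb* (−0.24 to 0.13) and *Pgf* (−0.0357 to 0.18), and with ctrl sh for *Vegfa* (−0.22 to 0.0496), *Vegfb* (−0.17 to 0.20) and *Pgf* (−0.14 to 0.0162).

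Counting error sets a floor of 0.218 to 0.323 CPM, under every value of the factors. Sex and transgene cannot be told apart between nSREBP2 and GFP. Sex is also unbalanced between Lrp2 sh2 and each of ctrl sh and Lrp2 sh1, and in the comparisons with uninjected libraries. The share of choroidal cells in each library is not known. Pearson r of the nearest genes differed by at most 0.003 with size factors, which were not run for r between factors. Of the named pathway genes, 14 of 18 with nSREBP2, 1 of 8 with Lrp2 sh1 and 9 of 18 with Lrp2 sh2 kept their call in every alternative other than the limit on log2FC.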
